A study of Mus musculus with 8 samples.

Results

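Bone morphogenetic protein (BMP) ligands, targets and antagonists were followed through a series on embryonic stem cells (ESCs) with mutations in Polycomb repressive complex 2 (PRC2). The members were chosen by gene name from the table of expression values: the ligands *Bmp2*, *Bmp4* and *Bmp7*, the target genes *Id1*, *Id2*, *Id3*, *Msx1* and *Msx2*, the intracellular inhibitor *Smad6*, itself a target, and the secreted antagonist *Nog*. All 10 names were found among the 36808 genes of the table. The ligands were set beside the targets to see whether higher ligand RNA in the mutants came with higher target RNA.

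RNA was sequenced from mouse ESCs (day 0) and from cells taken 5 days into differentiation toward spinal motor neurons by retinoic acid and a Sonic hedgehog agonist, with 1 library for each of 8 conditions. The wild-type line E14 (129/Ola) was measured as ESCs and at day 5, and a second wild-type line, CJ7 (129/S), as ESCs. The Suz12delta line (C57/BL6), whose SUZ12 is truncated, and the Eednull line (BALB/cR1), with a point mutation in *Eed*, were measured at both times. The Suz12GT line (129/Ola), a gene trap that fuses SUZ12 to β-galactosidase and keeps a lowered level of H3K27me3, was measured at day 5, and its ESCs were not analysed here. The Suz12delta and Eednull lines are called the null lines below, since the study describes H3K27me3 as largely gone from both. Genotype, line and strain background cannot be told apart for either null line. ESCs were kept on irradiated mouse embryonic fibroblasts, which a brief plating step was meant to remove before collection. The CJ7 label names ST20 as the library it was made and sequenced with, and the table's header gives that number to Eednull ESCs. CJ7 is on that reading the wild type of the same batch for Eednull ESCs.

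Values are FPKM (fragments scaled to transcript length and to the number mapped in the library), and no read counts were used, so the depth behind each value is unknown. With 1 library per condition there was no replicate error and no test, and each ratio compares 2 libraries. Ratios are log2(FPKM + 0.1), which understates differences of genes with low FPKM. A gene was compared where either library reached 0.1 FPKM, and was counted as higher or lower at a 2-fold ratio on that scale. All 10 members were compared every time.

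The libraries differed in more than the mutation. *Suz12* was at 41.3 FPKM in E14 ESCs, 53.1 in CJ7, 6.21 in Suz12delta and 35.7 in Eednull, and at day 5 at 16.2 in E14, 10.3 in Suz12GT, 11.6 in Suz12delta and 17.6 in Eednull. A truncation, a fusion or a point mutation need not lower RNA, so these values check the labels only in part. The ESC markers were abundant in all 4 ESC libraries, with sums over 7 genes of 376 to 1040 FPKM, against 12.6 to 32.4 at day 5. The motor neuron lineage markers (8 genes) summed to 141 FPKM in E14 and 106 in Suz12GT at day 5, but to 20.3 in Suz12delta and 18.4 in Eednull, so the labelled fate was weakly represented in both null lines. Rescaling each library to its 75th percentile moved all log2 ratios of Suz12delta ESCs against E14 ESCs by 0.37, of Suz12delta day 5 against its ESCs by -0.38, and of the other comparisons by -0.15 to 0.22. The median of all genes compared is therefore printed beside that of the members.

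BMPs are secreted proteins that bind paired type I and type II receptor kinases, which phosphorylate SMAD1, SMAD5 and SMAD9, and these enter the nucleus with SMAD4. *Id* genes, which encode inhibitors of basic helix-loop-helix factors, and the homeobox genes *Msx1* and *Msx2* are classical targets, while SMAD6 and Noggin restrain the pathway inside and outside the cell. In the embryonic spinal cord BMPs from the roof plate pattern the dorsal side, opposite the Sonic hedgehog source under which motor neurons form, and in ESCs BMP4 and Id proteins are known to favour self-renewal.

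Promoters of 4 members are printed to show the sequence in front of genes with contrasting expression: *Bmp4* and *Msx2*, which were at or below 0.140 FPKM in E14 day 5 and above 1.5 FPKM in both null lines, and *Id2* and *Id3*, which were above 5 FPKM in every library. RefSeq promoters (GRCm38.p6) were found for 6 of the 10 members (*Bmp4*, *Id2*, *Id3*, *Msx1*, *Msx2* and *Smad6*), and not for *Bmp2*, *Bmp7*, *Id1* and *Nog*. Each window is the 250 bases before the annotated start, 5′ to 3′ on the gene's strand, with CpG dinucleotides in capitals: *Bmp4* at chr14:46390670-46390919 (minus strand), *Msx2* at chr13:53472781-53473030 (minus), *Id2* at chr12:25096093-25096342 (minus) and *Id3* at chr4:136143572-136143821 (plus).
Bmp4: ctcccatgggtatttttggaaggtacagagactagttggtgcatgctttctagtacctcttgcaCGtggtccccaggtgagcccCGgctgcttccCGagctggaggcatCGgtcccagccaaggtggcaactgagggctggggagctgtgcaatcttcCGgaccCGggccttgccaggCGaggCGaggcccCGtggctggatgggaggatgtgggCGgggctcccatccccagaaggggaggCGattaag
Msx2: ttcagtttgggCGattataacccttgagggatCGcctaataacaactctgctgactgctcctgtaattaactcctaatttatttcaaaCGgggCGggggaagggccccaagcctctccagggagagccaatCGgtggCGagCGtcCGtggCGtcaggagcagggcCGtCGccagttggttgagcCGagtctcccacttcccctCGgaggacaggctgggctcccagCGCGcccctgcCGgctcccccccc
Id2: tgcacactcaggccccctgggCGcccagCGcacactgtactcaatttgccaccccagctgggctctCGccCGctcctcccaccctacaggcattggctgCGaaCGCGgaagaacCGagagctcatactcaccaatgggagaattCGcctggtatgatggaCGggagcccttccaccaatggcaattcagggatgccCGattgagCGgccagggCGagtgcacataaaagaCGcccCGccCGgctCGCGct
Id3: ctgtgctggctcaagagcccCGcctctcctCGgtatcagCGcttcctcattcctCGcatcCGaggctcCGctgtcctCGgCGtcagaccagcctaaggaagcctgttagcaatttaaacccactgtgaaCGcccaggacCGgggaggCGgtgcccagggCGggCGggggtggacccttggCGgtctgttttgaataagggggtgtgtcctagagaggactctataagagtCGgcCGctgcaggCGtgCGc

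All 6 promoters held more CpGs than the median of 6 among the 32851 promoters of the RefSeq table in the same window. *Bmp4* had 11 CpGs, *Msx2* 16, *Id2* and *Id3* 18 each, *Msx1* 20 and *Smad6* 27, and 64.4% of all promoters had fewer than *Bmp4* and 91.4% fewer than *Smad6*. *Bmp4* and *Msx2*, low at E14 day 5, had fewer CpGs than *Id2* and *Id3*. *Msx1*, also low there at 0.176 FPKM, had more than either *Id* gene. The palindrome GGCGCC, a letter string that BMP-activated Smads are known to bind, reads the same on both strands and was found in the *Id2* window alone of the 6, starting 231 bases before the start site. It was present in 3149 of all 32851 windows (9.59%), and its match is a description of the letters only.

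**Figure D1:**
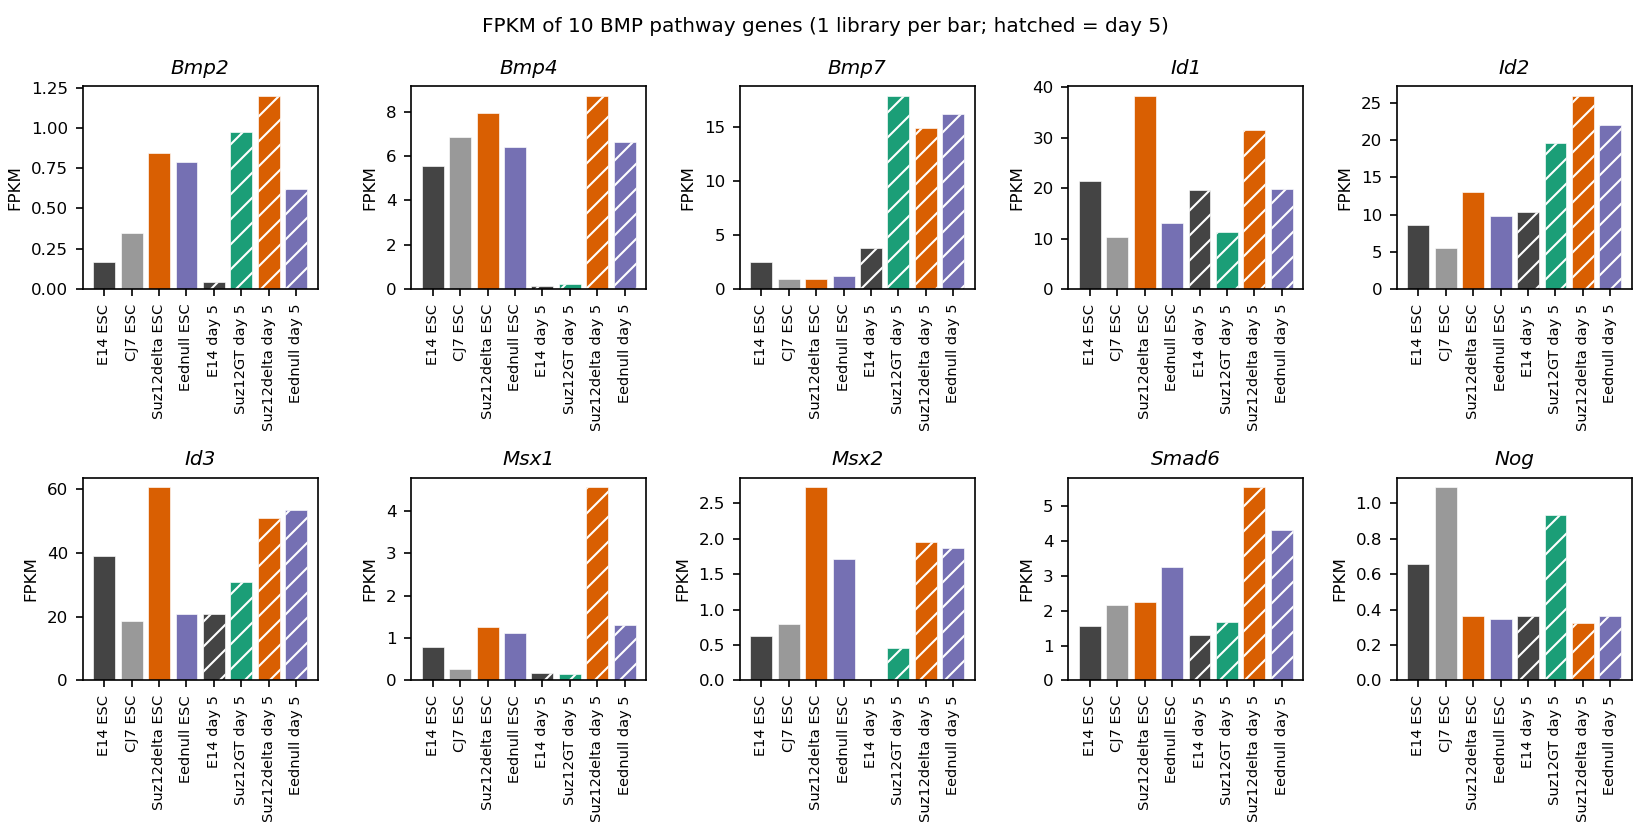
FPKM (linear vertical axes from 0, scaled per gene) of the 10 genes, with 1 bar per library, hatched for day 5 cells. *Bmp4* dropped from view in the E14 and Suz12GT day 5 libraries, at 0.140 and 0.230 FPKM, and stood at 8.73 and 6.64 FPKM in Suz12delta and Eednull.

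Among the ligands, the null lines and Suz12GT differed most at *Bmp4*, which encodes the BMP ligand best known in ESC culture (NCBI build 37, chr14:47003195-47010344, minus strand). ESCs held 5.56 FPKM of *Bmp4* in E14, 6.85 in CJ7, 7.93 in Suz12delta and 6.39 in Eednull. Day 5 cells held 0.140 FPKM in E14, 0.230 in Suz12GT, 8.73 in Suz12delta and 6.64 in Eednull. The 4 ESC libraries thus lay within 2-fold of each other, and the 2 null lines at day 5 stood at their ESC level while E14 and Suz12GT were near 0. The log2 ratio of day 5 to ESC was -4.56 in E14, 0.14 in Suz12delta and 0.06 in Eednull, and both of the latter turned negative with median ratio scaling. Against E14 day 5, *Bmp4* was higher by 5.20 in Suz12delta and 4.81 in Eednull on the log2 scale, and 0.46 in Suz12GT. The span of *Bmp4* overlaps *Gm15217* and *Gm15222* on the other strand, which reached at most 1.15 FPKM in any library; whether strand was used in counting is not given in the sources used here.

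*Bmp7*, a ligand of the roof plate and kidney (chr2:172693513-172765822, minus strand), separated all 3 mutants from wild type at day 5. Its ESC levels were 2.51 FPKM in E14, 0.903 in CJ7, 0.969 in Suz12delta and 1.2 in Eednull. At day 5 they were 3.79 FPKM in E14, 17.9 in Suz12GT, 14.9 in Suz12delta and 16.2 in Eednull. The 3 mutants were 4.74-fold, 3.93-fold and 4.29-fold above E14 in FPKM, with log2 ratios of 2.22, 1.95 and 2.07. Among ESCs E14 stood apart. The null lines were at -1.29 and -1.01 against E14 but at 0.09 and 0.37 against CJ7. The direction in ESCs thus depended on which wild-type library was used. From ESC to day 5 *Bmp7* was 15.4-fold higher in Suz12delta, 13.5-fold in Eednull and 1.51-fold in E14.

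*Bmp2*, a ligand close in sequence to BMP4 (chr2:133377895-133388621, plus strand), was low everywhere. ESCs had 0.165 FPKM in E14, 0.350 in CJ7, 0.846 in Suz12delta and 0.787 in Eednull. Day 5 cells had 0.0447 FPKM in E14, 0.974 in Suz12GT, 1.2 in Suz12delta and 0.619 in Eednull. Every mutant library was above every wild-type library, although only Suz12delta day 5 reached 1 FPKM. The log2 ratios to E14 at day 5 were 2.89 in Suz12GT, 3.17 in Suz12delta and 2.31 in Eednull, and with a pseudocount of 1 they were 0.92, 1.08 and 0.63. In ESCs they were 1.84 and 1.74 against E14, and 1.07 and 0.98 against CJ7.

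The 3 ligands together came to 3.97 FPKM in E14 at day 5, 19.2 in Suz12GT, 24.8 in Suz12delta and 23.5 in Eednull. In Suz12GT nearly all of this was *Bmp7*, whereas in the null lines *Bmp4* added to it. In ESCs the sums lay closer together, at 8.24 FPKM in E14, 8.10 in CJ7, 9.74 in Suz12delta and 8.38 in Eednull.

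*Id3*, an inhibitor of basic helix-loop-helix factors, was the most abundant member in every library. *Id3* (chr4:135699412-135701670, plus strand) was at 39.0 FPKM in E14 ESCs, 18.8 in CJ7, 60.6 in Suz12delta and 20.7 in Eednull. At day 5 it was at 20.8 FPKM in E14, 30.9 in Suz12GT, 50.9 in Suz12delta and 53.4 in Eednull, so that both null lines were above Suz12GT, and Suz12GT above E14. The log2 ratios to E14 at day 5 were 1.28 in Suz12delta, 1.35 in Eednull and 0.57 in Suz12GT.

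*Id2* (chr12:25778666-25780957, minus strand), the member with GGCGCC in its promoter window, was at 8.61 FPKM in E14 ESCs, 5.45 in CJ7, 13.1 in Suz12delta and 9.77 in Eednull. At day 5 *Id2* was at 10.4 FPKM in E14, 19.6 in Suz12GT, 26.0 in Suz12delta and 22.1 in Eednull. All 3 mutants lay above E14, by 0.91 in Suz12GT, 1.31 in Suz12delta and 1.08 in Eednull on the log2 scale, the first of them just short of 2-fold.

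*Id1* (chr2:152561987-152563146, plus strand), which is often read as the most direct report of BMP signalling, did not separate mutants from wild type. It was at 21.4 FPKM in E14 ESCs, 10.3 in CJ7, 38.3 in Suz12delta and 13.0 in Eednull. At day 5 it was at 19.7 FPKM in E14, 11.2 in Suz12GT, 31.5 in Suz12delta and 19.8 in Eednull. Its log2 ratio to E14 at day 5 was -0.81 in Suz12GT, 0.67 in Suz12delta and 0.00 in Eednull, all short of 2-fold. The 2 wild-type ESC libraries, which may also differ in batch, lay further apart than any of these, with a log2 ratio of -1.05 for CJ7 against E14.

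*Msx1* and *Msx2* are homeobox repressors expressed in dorsal neural tube and other BMP-exposed tissues. Both were higher in the null lines than in the other libraries of the same time. *Msx2* was also above E14 in Suz12GT at day 5. *Msx2* (chr13:53562250-53568443, minus strand) was at 0.625 FPKM in E14 ESCs, 0.791 in CJ7, 2.73 in Suz12delta and 1.71 in Eednull. At day 5 it was at 0.0103 FPKM in E14, 0.456 in Suz12GT, 1.95 in Suz12delta and 1.87 in Eednull. *Msx2* had the widest range of the 10 members, 265-fold between its highest and lowest library, which rests on the value near 0 in E14 day 5. Its log2 ratio to E14 day 5 was 4.21 in Suz12delta, 4.16 in Eednull and 2.33 in Suz12GT, and with a pseudocount of 1 it was 1.54, 1.51 and 0.53. In ESCs the ratios were 1.97 and 1.32 against E14 and 1.67 and 1.03 against CJ7.

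*Msx1* (chr5:38211724-38215822, minus strand) was at 0.799 FPKM in E14 ESCs, 0.273 in CJ7, 1.25 in Suz12delta and 1.11 in Eednull. At day 5 it was at 0.176 FPKM in E14, 0.152 in Suz12GT, 4.56 in Suz12delta and 1.31 in Eednull. The null lines at day 5 were above E14 by 4.08 and 2.36 on the log2 scale, and Suz12GT was at -0.13. In ESCs they were above E14 by 0.59 and 0.43, short of 2-fold. Suz12delta day 5 held the highest *Msx1* of the 8 libraries.

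*Smad6* (chr9:63800953-63869866, minus strand), whose product blocks receptor-activated Smads, was also higher in both null lines than in E14 and Suz12GT at day 5. Its ESC levels were 1.57 FPKM in E14, 2.18 in CJ7, 2.24 in Suz12delta and 3.27 in Eednull. The day 5 levels were 1.3 FPKM in E14, 1.67 in Suz12GT, 5.55 in Suz12delta and 4.32 in Eednull. The null lines were above E14 day 5 by 2.02 and 1.66 on the log2 scale, and Suz12GT by 0.34. In Eednull ESCs *Smad6* was 1.01 above E14 but 0.56 above CJ7, read above as its wild type of the same batch.

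*Nog*, which encodes the secreted antagonist Noggin (chr11:89161952-89163873, minus strand), was the only member that was 2-fold higher in Suz12GT and in neither null line at day 5. It was at 0.655 FPKM in E14 ESCs, 1.09 in CJ7, 0.362 in Suz12delta and 0.348 in Eednull. At day 5 it was at 0.365 FPKM in E14, 0.933 in Suz12GT, 0.326 in Suz12delta and 0.365 in Eednull. The log2 ratios to E14 day 5 were 1.15, -0.13 and 0.00 in that order of mutants, and the first was 0.50 with a pseudocount of 1. In ESCs both null lines were below CJ7, by -1.36 and -1.41, and less so below E14, by -0.71 and -0.75.

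**Figure D2:**
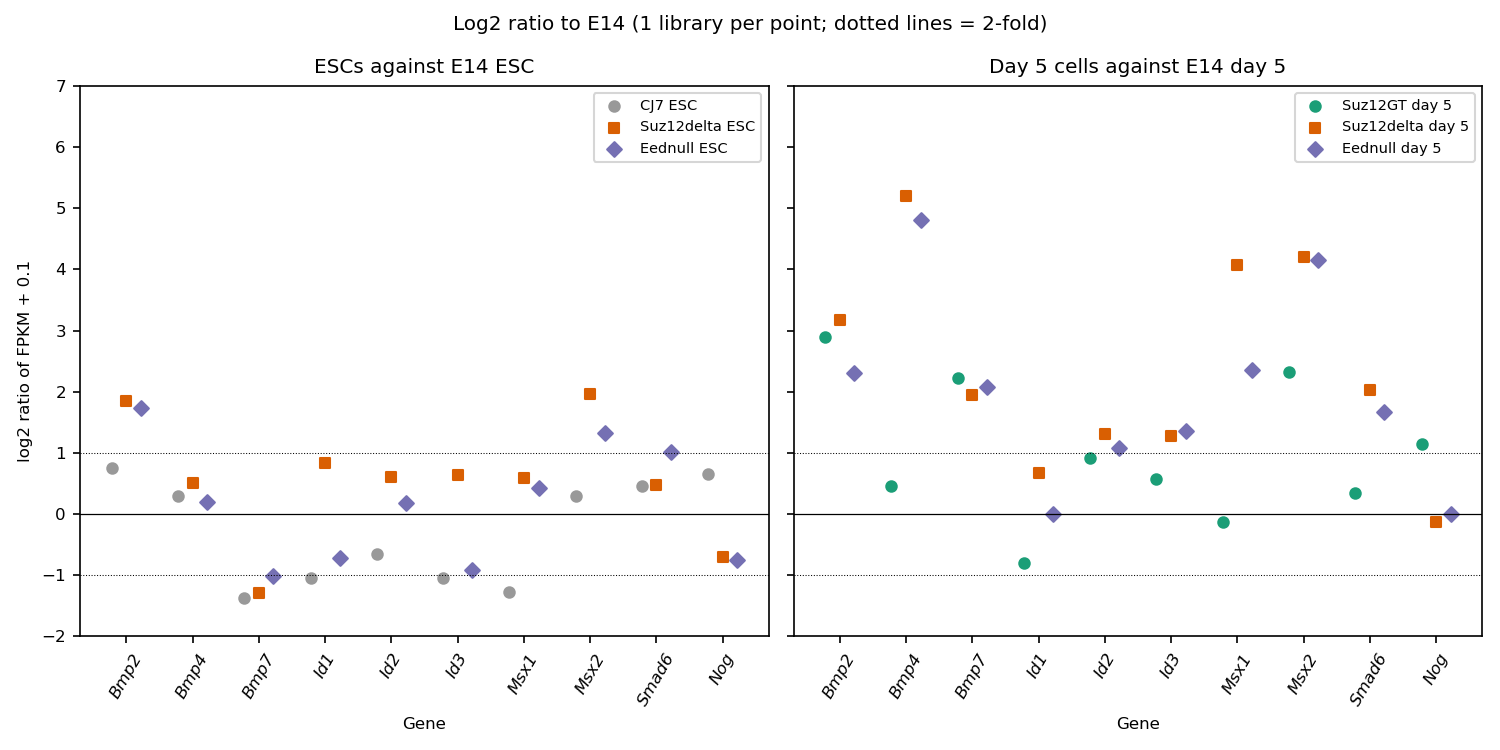
Log2 ratio of FPKM + 0.1 to E14 ESC (left: CJ7, Suz12delta and Eednull ESCs) and to E14 day 5 (right: Suz12GT, Suz12delta and Eednull), with 1 point per gene and library pair and dotted lines at 2-fold. *Bmp7* was higher in all 3 mutants at day 5 by 1.95 to 2.22, whereas *Bmp4* and *Msx1* were above the 2-fold line in the null lines only.

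Counted over the members, day 5 gave the largest differences. In Suz12delta day 5 8 of 10 members were at least 2-fold above E14 day 5 and 0 below, whereas 26.6% of the 22069 genes compared were higher and 9.52% lower. In Eednull day 5 8 members were also higher and 0 lower, with 21.6% and 11.3% of 21442 genes. Both sets of 8 left out *Id1* and *Nog*. In Suz12GT day 5 4 members (*Bmp2*, *Bmp7*, *Msx2* and *Nog*) were higher and 0 lower, with 16.8% and 4.40% of 20840 genes. The median log2 ratio of the members was 1.98, 1.87 and 0.74 in Suz12delta, Eednull and Suz12GT, and that of all genes compared was 0.26, 0.08 and 0.13. These 3 comparisons share the E14 day 5 library, in which *Bmp2*, *Bmp4*, *Msx1* and *Msx2* were at or below 0.176 FPKM, so a low value there entered all 3. In Suz12GT only *Bmp7* stayed 2-fold higher when 1 FPKM was required in either library or added as the pseudocount.

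Set beside the ligands, the targets were higher in the null lines than in Suz12GT. The ligand sum was 19.2 FPKM in Suz12GT, 24.8 in Suz12delta and 23.5 in Eednull at day 5. The sum of *Id1*, *Id2* and *Id3* was 61.8 FPKM in Suz12GT, 108 in Suz12delta and 95.3 in Eednull, with 51.0 in E14. The sum of *Msx1* and *Msx2* was 0.608, 6.50 and 3.19 FPKM in the same mutants, with 0.186 in E14. The ligand, *Id* and *Msx* sums were each higher than in E14 in all 3 mutants. Of the targets, *Msx2* was at least 2-fold higher in all 3 mutants, and *Id2*, *Id3*, *Msx1* and *Smad6* reached 2-fold in both null lines, with *Id2* at 1.89-fold in Suz12GT. Whether Suz12GT differed from the null lines was not tested. At day 5 the ligand, *Id* and *Msx* sums each rose in the same order: E14, Suz12GT, Eednull and Suz12delta. Across ESC and day 5 libraries the ligand and *Id* sums did not share 1 order. E14 ESCs held 69.0 FPKM of *Id* RNA with 8.24 FPKM of ligand RNA, against 61.8 and 19.2 FPKM in Suz12GT day 5. Whether the targets answered the ligands was not tested.

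In ESCs fewer members differed from E14 than at day 5 in the same null lines, and the reported counts of higher members were near the shares of all genes. In Suz12delta ESCs 2 of 10 members were higher than in E14 ESCs (*Bmp2* and *Msx2*) and 1 lower (*Bmp7*), with 18.0% and 22.8% of 21980 genes. Here the scaling mattered: 4 members were higher after 75th percentile scaling, 5 after median ratio scaling, and 0 were then lower. The share of all genes higher moved with it, to 23.5% and 24.8%, and the share lower to 14% and 12.9%. In Eednull ESCs 3 members were higher than in E14 (*Bmp2*, *Msx2* and *Smad6*) and 1 lower (*Bmp7*), with 22.4% and 11.9% of 24280 genes. The member medians were 0.59 and 0.19, and those of all genes -0.28 and 0.04.

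The 2 wild-type ESC lines differed at 4 members, no fewer than either null line against E14. In CJ7 0 members were higher than in E14 and 4 lower (*Bmp7*, *Id1*, *Id3* and *Msx1*), with 15.7% and 14.7% of 23141 genes. Against CJ7, 6 members were higher in Suz12delta ESCs and 1 lower (*Nog*), with 21.1% and 24.0% of genes, and the 6 held all 3 *Id* genes, both *Msx* genes and *Bmp2*. Against CJ7, 2 members were higher in Eednull ESCs (*Msx1* and *Msx2*) and 1 lower (*Nog*), with 20.5% and 10.7% of genes. CJ7 and Eednull ESCs are a pair of 1 batch on the reading of the CJ7 label given above. On that reading the E14 and Suz12delta ESC libraries may differ in batch from both. Line and batch then cannot be told apart between CJ7 and E14, and Suz12delta against CJ7 may cross batches too. *Msx2* was the only member at least 2-fold higher in both null lines against either wild type. *Bmp2* fell just short of this, at a log2 ratio of 0.98 in Eednull against CJ7.

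Over differentiation, 3 members were lower at day 5 in E14 and 3 higher in Suz12delta, both near the shares of all genes. From ESC to day 5 in E14 0 members were higher and 3 lower (*Bmp4*, *Msx1* and *Msx2*), with 18.3% and 25.8% of 21563 genes. In Suz12delta 3 members were higher (*Bmp7*, *Msx1* and *Smad6*) and 0 lower, with 26.9% and 12.6% of 22681 genes. In Eednull 3 were higher (*Bmp7*, *Id2* and *Id3*) and 0 lower, with 18.4% and 24.8% of 24638 genes, between libraries that may differ in batch. The member medians were -0.79 in E14, 0.30 in Suz12delta and 0.30 in Eednull, and those of all genes -0.20, 0.43 and -0.08. *Bmp7* was the only member at least 2-fold higher at day 5 than in ESCs in both null lines. *Id2* fell just short of this, at 0.98 in Suz12delta and 1.17 in Eednull on the log2 scale.

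Markers of other cell types also differed between the libraries. Fibroblast markers (12 genes) summed to 143 FPKM in E14 ESCs, 150 in CJ7, 797 in Suz12delta and 399 in Eednull, and at day 5 to 4.94 in E14, 22.5 in Suz12GT, 135 in Suz12delta and 70.2 in Eednull. At day 5 11 of 12 were at least 2-fold above E14 in Suz12GT and 12 of 12 in both null lines, and *Lum* was at 0 in E14. For this and the lists below, 16.8% of all genes compared were higher in Suz12GT, 26.6% in Suz12delta and 21.6% in Eednull. Dorsal neural tube markers (8 genes), the territory that BMPs pattern, summed to 0.558 FPKM in E14 day 5, 4.09 in Suz12GT, 8.86 in Suz12delta and 8.58 in Eednull, with 2, 4 and 3 of 8 higher and *Lmx1a* and *Pax3* at 0 in E14. *Zic1* alone carried most of these mutant sums, at 3.54, 6.67 and 6.69 FPKM, and *Wnt1*, *Wnt3a*, *Pax7*, *Sox10* and *Foxd3* were at or below 0.201 FPKM in all 4 libraries. Endoderm markers (8 genes) summed to 3.81, 29.7, 50.1 and 42.0 FPKM in the same order, with 8 of 8 higher in each mutant and *Gata4* and *Afp* at 0 in E14. Trophoblast markers (5 genes) summed to 0.309, 2.83, 57.4 and 58.3 FPKM, with 4, 5 and 5 of 5 higher and *Elf5* and *Hand1* at 0 in E14. Mesoderm markers (6 genes) summed to 0.371, 0.988, 10.2 and 8.53 FPKM, with 1, 4 and 4 of 6 higher. The mesoderm count in Suz12GT was near the share of all genes. *Kdr* alone made up 0.897, 8.45 and 7.49 FPKM of the mutant sums. ESC markers were at least 2-fold above E14 day 5 for 6 of 7 genes in Suz12GT, 6 in Suz12delta and 3 in Eednull, with *Nanog* and *Klf4* at 0 in E14. In each null line 1 ESC marker was 2-fold lower, *Sox2*, at 3.7 FPKM in Suz12delta and 5.63 in Eednull. *Sox2* made up 20.7 of the 21.8 FPKM that ESC markers summed to in E14 day 5. Their sums were 18.0 FPKM in Suz12delta and 12.6 in Eednull. The part of these marker lists in the results was not tested. In bulk RNA, a larger number of cells of a type and more RNA per cell cannot be told apart.

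The rest of the pathway was read from a list of 52 other genes, all present in the table. At day 5, 15 of the 43 compared were at least 2-fold above E14 and 0 below in Suz12GT, 24 of 47 above and 5 below in Suz12delta, and 20 of 45 above and 7 below in Eednull, beside the shares of all genes given above. The median log2 ratios of the list were 0.56, 1.09 and 0.83. Secreted antagonists, the list with most genes compared, gave 5 of 11 higher in Suz12GT and 8 of 13 in each null line. Further targets gave 3 of 5 in Suz12GT, 4 of 6 in Suz12delta and 3 of 5 in Eednull. Other ligands gave 4 of 8, 6 of 9 and 4 of 8 in the same order. By share the antagonists thus did not lead in Suz12GT or Suz12delta. *Fst*, which encodes follistatin, an activin and BMP binder, was at 0.0993 FPKM in E14, 4.79 in Suz12GT, 3.71 in Suz12delta and 1.95 in Eednull. *Bmper*, a secreted BMP modulator, was at 0.0211, 1.03, 2.52 and 1.25 FPKM, and *Nbl1*, a BMP binder of the DAN family, at 0.399, 2.78, 8.37 and 8.08 FPKM. *Tbx3*, a T-box gene listed among the targets, had the largest ratios of the list in all 3 mutants, with 0.0815 FPKM in E14, 7.13 in Suz12GT, 14.5 in Suz12delta and 10.4 in Eednull. Its E14 ESC level was 27.0 FPKM, and E14 day 5 was the lowest of the 8 libraries.

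Receptors and co-receptors differed in both directions. Of 7 receptors, *Bmpr1b* alone was higher in Suz12GT, *Bmpr1b* and *Acvrl1* were higher in both null lines, and *Acvr2a* was lower in Eednull. The counts of higher receptors were near the shares of all genes, 16.8% in Suz12GT, 26.6% in Suz12delta and 21.6% in Eednull. *Acvrl1*, a type I receptor known from endothelium, was at 0.074 FPKM in E14 day 5, 0.171 in Suz12GT, 1.92 in Suz12delta and 2.05 in Eednull. *Eng*, the co-receptor endoglin, was at 0.0861 FPKM in E14, 0.54 in Suz12GT, 4.07 in Suz12delta and 1.5 in Eednull, and was higher in all 3 mutants. The co-receptors *Rgma* and *Rgmb* were 2-fold lower in both null lines, with log2 ratios of -1.72 and -1.42 in Suz12delta and -1.50 and -1.46 in Eednull, so 3 of 4 co-receptors differed there. Of the 4 signal-transducing Smads, *Smad9* alone reached 2-fold, in both null lines, which was also near the shares of all genes. The further ligand *Bmp8b* was at 0.0537 FPKM in E14, 0.246 in Suz12GT, 1.37 in Suz12delta and 1.10 in Eednull.

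*Id4*, singled out after its values were seen because it is the remaining *Id* gene, ran against *Id2* and *Id3* in the null lines. It was at 5.01 FPKM in E14 day 5, 12.4 in Suz12GT, 0.942 in Suz12delta and 0.91 in Eednull, log2 ratios of 1.3, -2.29 and -2.34. *Id4* is known from neural progenitors as well as from BMP signalling. The *Id* genes therefore had no common direction in the null lines at day 5.

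**Figure D3:**
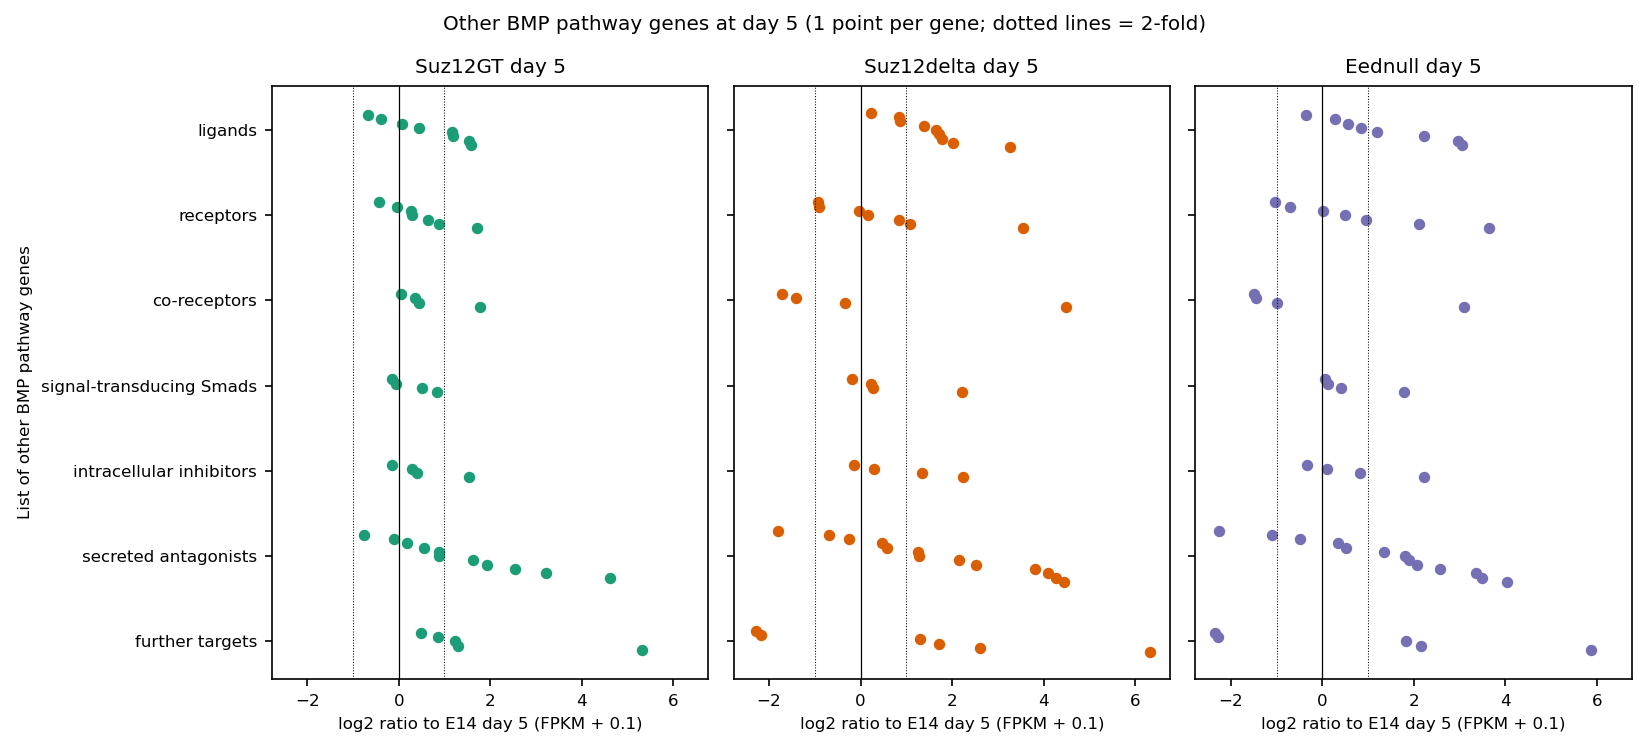
Log2 ratio of FPKM + 0.1 to E14 day 5 for the other BMP pathway genes compared, 1 point per gene, in rows by their list and with dotted lines at 2-fold. In the null lines the further targets ran from *Hey1* and *Id4*, below -2, to *Tbx3* at 6.33 and 5.86, and in Suz12GT no gene was 2-fold lower.

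In ESCs the list gave 15 of 44 genes higher and 6 lower in Suz12delta against E14, and 12 of 46 higher and 2 lower in Eednull. These are 34.1% higher and 13.6% lower in Suz12delta, where all genes gave 18.0% and 22.8%, and 26.1% and 4.35% in Eednull, where all genes gave 22.4% and 11.9%. The Eednull share of higher genes was thus near that of all genes. CJ7 had 4 of 44 higher (9.09%) and 5 lower, with 15.7% of all genes higher. *Fst* was at 3.86 FPKM in E14, 6.06 in CJ7, 18.8 in Suz12delta and 17.1 in Eednull. *Fst* stood above either wild type in both null lines, in libraries where the fibroblast markers were also higher.

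Members were also compared by the shape of their profile over the 8 libraries, as the mean absolute log2 difference after each gene was centred on its own mean. Among the members, *Id1* and *Id3* were most alike at 0.31, followed by *Id2* with *Id3* and *Id2* with *Smad6*, both at 0.49. Over 18538 genes that reached 1 FPKM in a library, the genes nearest *Bmp4* were *D6Mm5e* (0.28), *Klk8* (0.31) and *Tgm1* (0.32). Nearest *Bmp7* were *Rec8* (0.32), *Gm13507* (0.37) and *Nos1ap* (0.37), and nearest *Bmp2* were *Pde4b* (0.27), *Slc44a3* (0.30) and *Slc5a5* (0.31). *Nog* had the closest single neighbour, *Cacna1a* at 0.08, followed by *G3bp2* (0.22) and *Wnk1* (0.23). *Msx1* was nearest to *Wnt6* (0.28), *Gm14790* (0.29) and *Cpz* (0.36), and *Id1* to *Gm10268* (0.23), *Gm16907* (0.24) and *Hyal1* (0.24). The neighbours were picked as the smallest of many distances.

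**Figure D4:**
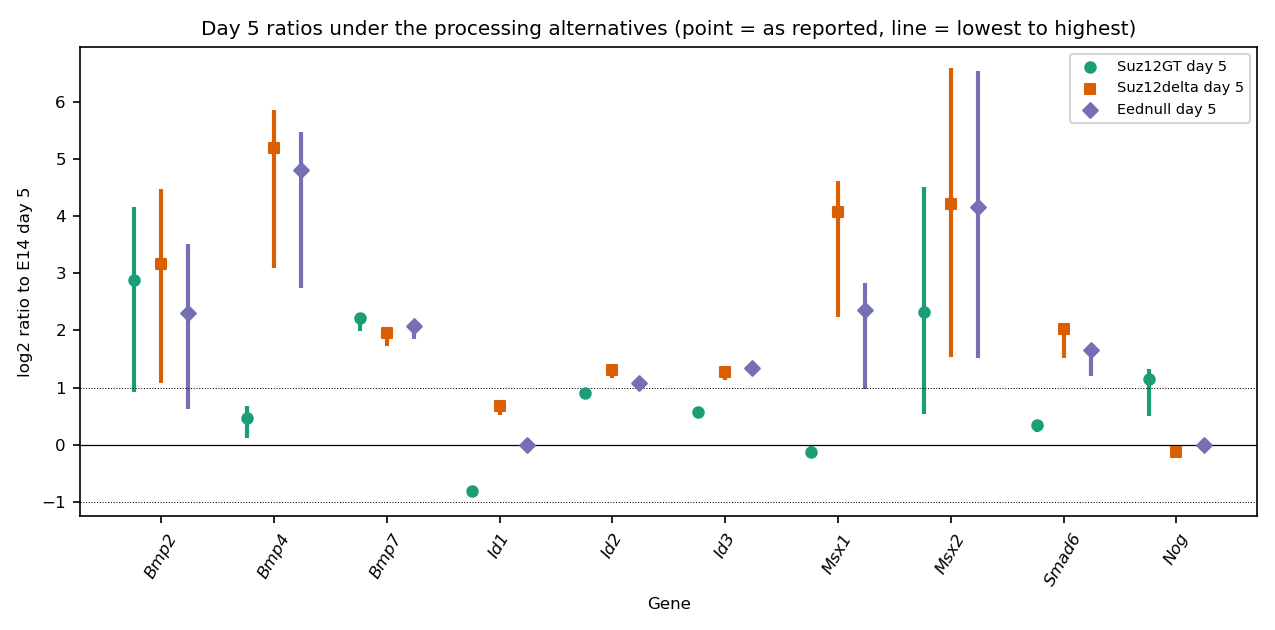
Log2 ratio to E14 day 5 of the 10 genes as reported (points) and over the other pseudocounts, minimums and scalings (lines from lowest to highest value), with dotted lines at 2-fold. *Bmp7*, *Id2* and *Id3* hardly moved, whereas *Msx2* in Suz12delta ran from 1.54 to 6.59 and *Bmp2* in Eednull from 0.63 to 3.52.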

How the data were processed

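Gene expression was measured by RNA-seq (Illumina GA-2 or Hi-Seq) in 8 libraries. The authors deposited 1 table of FPKM values per gene and library, headed RPKM. The submitters' processing notes name TopHat 1.3.2, Bowtie 0.12.7, Cufflinks 1.2.1, Cuffdiff and build mm9; the strandedness of the libraries is not given in the sources used here. Gene positions were from GENCODE vM1 (NCBI build 37) and promoters from RefSeq (GRCm38.p6).

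Libraries were grouped by their labels. Ratios were computed as log2(FPKM + 0.1) where either library held 0.1 FPKM or more of a gene, and called at 2-fold, with Python 3.11.15, NumPy 2.4.6 and pandas 2.3.3; the steps were tested on simulated data. The members, pathway list and markers were chosen with earlier results of these data known. Other pathway genes were named where a library reached 1 FPKM and the ratio to E14 reached 4-fold, up to 8 per comparison, of which a selection is printed; genes of like profile were named for 6 members, 3 each. *Tfap2c* on the trophoblast list was not analysed here. A result on 1 gene of the pathway list is not reported here. Each was repeated with 1 or 0.01 as the pseudocount, with no minimum or a minimum of 1 FPKM, with 75th percentile and median ratio scaling, and with CJ7 in place of E14 ESCs.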

Additional observations from a re-analysis of the deposited data

Results flagged for a closer look

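*Msx1* moved in opposite directions between ESC and day 5 in 2 lines, past 2-fold in each. Its log2 ratio of day 5 to ESC was -1.71 in E14 and 1.79 in Suz12delta, with 1 library for each line and time, and the difference was not tested. In Eednull the ratio was 0.22. With a pseudocount of 1 the E14 ratio was -0.61 and the Suz12delta ratio 1.3, and with median ratio scaling they were -1.61 and 1.33.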

How the results depend on the processing

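No paired analysis was possible because each condition had 1 library, and for the same reason no library could be left out. Of 100 recomputed counts of members, 84 stayed within 1.5 times the reported count, and 16 did not. With a pseudocount of 1, members higher numbered 0 in Eednull ESCs against E14 (reported 3), 1 in Suz12delta ESCs against E14 (reported 2) and 1 in Suz12GT day 5 (reported 4), and members lower numbered 1 in E14 day 5 against ESC (reported 3) and 0 in both null ESC lines against E14 (reported 1 each). With a minimum of 1 FPKM, 1 member was higher in Suz12GT day 5, 1 higher in Suz12delta ESCs and 1 lower in E14 day 5 against ESC. With 75th percentile scaling, 4 members were higher in Suz12delta ESCs, and with median ratio scaling 5; with either, 0 were lower in both null ESC lines. With CJ7 as the wild type, 6 were higher in Suz12delta ESCs, and the *Bmp7* log2 ratio turned from -1.29 to 0.09 in Suz12delta and from -1.01 to 0.37 in Eednull. The higher counts of both null lines at day 5 stayed within 1.5 times under every alternative run. Of 481 single-gene ratios under the alternatives, 445 kept their side of 2-fold and their direction, 21 fell below 2-fold, 13 passed it and 2 turned. Changes under the pseudocount and the minimum are built into them, since they shrink or drop genes of low FPKM; the cause of the other changes was not tested. Without read counts, the precision of values under 1 FPKM is unknown.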

Other observations

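The core of the BMP pathway was present in every library. The type I receptor *Bmpr1a* ranged from 16.7 to 43.3 FPKM, *Smad4* from 26.7 to 50.1 and *Smad5* from 9.37 to 39.8 over the 8 libraries. *Smad5* was at 9.37 to 13.1 FPKM in ESCs and at 29.1 to 39.8 at day 5, with wild type and mutants at both times. How many of all genes differ between the times in this way was not counted. *Gdf3*, a ligand of the same superfamily known from pluripotent cells, was at 10.1 to 26.2 FPKM in ESCs and at 0.0194 to 0.249 at day 5. These genes were chosen after their values were seen.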
